A study of Mus musculus with 8 samples.

Results

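The genes described here are 10 transcripts that are widely used to recognise mature, migratory dendritic cells: Ccr7, Ccl17, Ccl22, Il12b, Fscn1, Serpinb6b, Serpinb9, Flt3, Zbtb46 and Cacnb3, out of 32502 genes counted in at least 1 of 8 single-cell libraries. They were taken as a listed set, chosen with earlier results of these data known. The study had named Ccl17, Ccl22, Ccr7, Il12b, Serpinb6b and Serpinb9 for a macrophage-like subset of its KO tumours. The genes were followed through all barcodes that ranked among the 1000 with the most transcripts of their library and held at least 500 genes. Of these 7861 barcodes, 4735 held none of the 10 genes, 2634 held 1, 391 held 2 and 45 held 3. In all, 101 barcodes held 3 or more of the genes, and 56 of those belonged to the myeloid classes.

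The study dissociated brains of C57BL/6 mice (C57BL/6N in the study's methods) that carried GL261 tumours, a mouse glioma line that grows in immunocompetent hosts of this strain, and brains of naive mice without tumour. WT hosts were Irg1/Acod1 +/+ and KO hosts were Irg1/Acod1 -/-, and Acod1 encodes the enzyme that makes itaconate in activated macrophages. Each tumour-bearing library came from 1 mouse that received 500 GL261 cells, and was collected at an early (5 to 10 mm3), intermediate (20 to 25 mm3) or late (30 to 35 mm3) tumour volume. The 2 naive libraries, 1 per genotype, each name 2 mice in their titles, so that every combination of genotype and stage was a single library and had no replicate. The deletion lay in the host only, since the implanted tumour cells were GL261 in all 6 tumours. According to the study's methods, sex differed between the genotypes at the early stage (WT female, KO male) and at the intermediate stage (WT male, KO female), and it cannot be told apart from genotype there. The ages and the sexes of the naive mice were not given in the labels.

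Dendritic cells sample tissue for antigen, and those that mature lose their uptake machinery, raise costimulatory molecules and follow a chemokine gradient to the draining lymph node through the receptor CCR7. Mature cells also secrete chemokines that attract regulatory and helper T cells, and they build long actin protrusions with fascin. The healthy brain parenchyma holds very few such cells, which are otherwise found at its borders, whereas tumours recruit them with other leukocytes from the blood.

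The libraries were made by Drop-seq, in which a cell shares a droplet with a bead whose oligonucleotides carry a 12-base cell barcode and a unique molecular identifier (UMI). UMIs count 3′ ends of messenger RNA and are not scaled by gene length. The median kept barcode held between 1598.5 and 5642.5 UMIs per library, and the kept barcodes of a library held between 2026034 and 8350098 UMIs together. A level is given here in CPM, the UMIs of a gene per 1000000 summed UMIs of a class, with an exact 95% Poisson interval that covers counting error only. Classes were built by clustering without the 10 genes and were named from marker lists.

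Barcodes are not all separate cells in these tables. Within a library, 2314 of 7861 kept barcodes (29.4%) shared their first 11 bases with at least 1 other kept barcode and differed in the last base only, from 3.18% in WT naive to 43.6% in KO late. Of the 616 such sets, 613 lay wholly in 1 class. A set of 4 barcodes of the KO intermediate library is shown because all 4 were dendritic cell-like, and together they held 9201 UMIs and 7 of the 10 genes. The last base, in capitals, is the only one that differs:
barcode 1: ccaattcatttA
barcode 2: ccaattcatttC
barcode 3: ccaattcatttG
barcode 4: ccaattcatttT
Their Ccr7 UMIs numbered 11, 13, 18 and 14. Counts of barcodes are therefore given below both as deposited and with such sets merged. Between libraries, 27 barcode matches were found among the kept barcodes, and none of them held 3 or more of the genes.

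Acod1, the targeted gene, was counted in microglia-like and macrophage-like barcodes at 164 UMIs in WT early, 5 in WT intermediate and 8 in WT late. The libraries labelled KO held 31, 8 and 35 Acod1 UMIs in the same order, and both naive libraries held 0. The knockout was made by inserting a cassette into the gene, and the tables do not show from which allele these UMIs came, so KO is used below as the label of a library. Inside the 56 myeloid barcodes with 3 or more of the genes, Acod1 was found at 2 UMIs, both in KO late.

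Clustering set apart a group of 40 dendritic cell-like barcodes. Of the 16 markers in the dendritic cell list, 12 were detected in it. Ccl5, Traf1 and Cd200 were found in 85%, 85% and 82.5% of its barcodes, Socs2 in 65%, Relb in 62.5% and Cd86 in 47.5%. Of defining markers of resting dendritic cells, Itgax, Cd209a, Xcr1 and Clec10a were all at 0 UMIs of 86520, which allows up to 34.7 CPM each, and Clec9a had 6 UMIs in 3 barcodes (69.3 CPM, against 22.7 CPM in macrophage-like barcodes). The macrophage-like class held Itgax at 87.6 CPM and Clec10a at 48.8 CPM. Maturation genes thus carried the name of the class, and the receptors at 0 UMIs did not. All 40 barcodes came from tumour-bearing libraries, with 4 in WT early, 1 in WT intermediate, 2 in WT late, 9 in KO early, 18 in KO intermediate and 6 in KO late. After merging, 34 remained, and KO intermediate fell from 18 to 12.

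The 10 genes met in these barcodes. They had no part in the clustering, but were chosen with earlier results of these data known, so their meeting is described and is no test. Of the 40 dendritic cell-like barcodes, 39 (97.5%, exact 95% binomial interval 86.8 to 99.9) held 3 or more of the genes, and 1 held 2. Most held between 4 and 8, and 1 barcode of KO intermediate held all 10. Among macrophage-like barcodes 14 of 579 (2.42%) held 3 or more, and among microglia-like barcodes 3 of 739 did. Outside the myeloid classes 13 of 258 lymphocytes, 8 of 497 endothelial barcodes and 24 of 4023 tumour barcodes reached 3. Depth moved with these last groups: the barcodes concerned held a median of 7265, 13342 and 16051.5 UMIs, against 2087 in the dendritic cell-like ones, and the part of depth in their count was not tested. No barcode of the astrocyte, oligodendrocyte, OPC, neuron-like, choroid plexus or ependymal classes held 3.

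**Figure D1:**
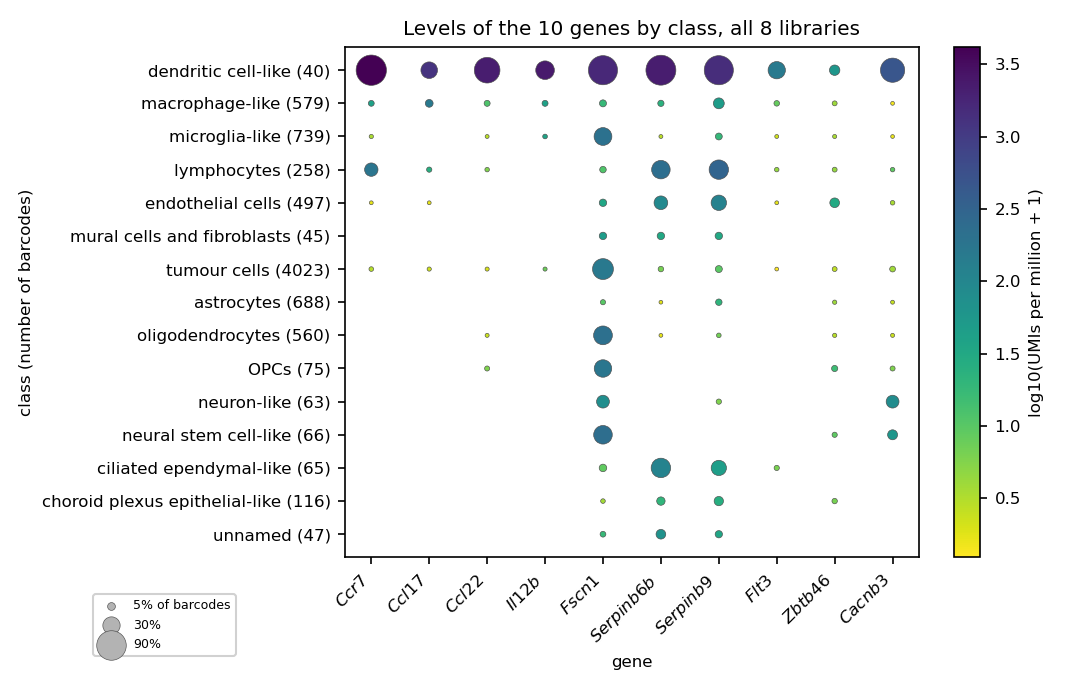
Colour gives the level of each gene, log10(CPM + 1), and circle area the percent of barcodes with a UMI, for each class (rows, with the number of barcodes) over all 8 libraries; an empty cell means 0 UMIs. All 10 genes reached their highest level in the 40 dendritic cell-like barcodes (Zbtb46 with 5 UMIs only), while Fscn1 was spread over glial and tumour classes and both serpins over lymphocytes, endothelial and ependymal barcodes.

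Ccr7, the homing receptor for the lymph node chemokines, was the most regular of the set. It lies on chromosome 11 (99144196 to 99155077, minus strand, GRCm38). In the dendritic cell-like class it reached 4172 CPM (3753 to 4626) and was found in 38 of 40 barcodes, with a median of 8 UMIs and a maximum of 21. By library the class held 3001 CPM in WT early, 830 CPM in WT intermediate, 6746 CPM in WT late, 3294 CPM in KO early, 5127 CPM in KO intermediate and 3176 CPM in KO late. The low value rests on 1 barcode with 2 UMIs and the high one on 2 barcodes. Lymphocytes followed at 175 CPM (148 to 206), with Ccr7 in 45 of 258 barcodes, and macrophage-like barcodes at 38.8 CPM (31.1 to 47.7). The intervals of these 3 classes stood apart, whereas microglia-like (2.47 CPM) and tumour barcodes (2.04 CPM) did not differ beyond counting error. In lymphocytes Ccr7 ranged from 0 UMIs in WT intermediate and WT late, with 6 and 5 lymphocytes, to 250 CPM in WT early. Of the 89 Ccr7 UMIs in macrophage-like barcodes 43 came from 1 barcode of KO late, which also held 22 Serpinb9, 21 Serpinb6b, 10 Il12b and 5 Flt3 UMIs and only 3 UMIs of macrophage markers.

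Ccl22 and Ccl17 encode the ligands of the receptor CCR4 and lie 58.753 kb apart on chromosome 8 of GRCm38 (Ccl22 at 94745590 to 94751699, Ccl17 at 94810453 to 94812036, both on the plus strand). Although neighbours, they were distributed differently. Ccl22 was found in 27 of 40 dendritic cell-like barcodes at 2184 CPM (1884 to 2519), and the next class, macrophage-like, held 10.9 CPM (7.05 to 16.1). Of its 254 UMIs in all libraries 189 lay in the dendritic cell-like class. By library the dendritic cell-like class held 10, 0 and 31 Ccl22 UMIs in WT early, intermediate and late, and 68, 77 and 3 in KO early, intermediate and late. KO late and WT intermediate were low, and 46 of the 68 UMIs of KO early came from 1 barcode.

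Ccl17 was found in 11 of 40 dendritic cell-like barcodes, each of which also held Ccr7, and 9 of the 11 held Ccl22. The class level was 1248 CPM (1024 to 1507), but 69 of its 108 UMIs came from 2 barcodes, and without them the level was 486 CPM. Macrophage-like barcodes held more Ccl17 in total than the dendritic cell-like ones, 359 of 528 UMIs (68.0%), at 156 CPM (141 to 173). These came from 29 of 579 barcodes. By library, the macrophage-like Ccl17 UMIs numbered 69 in WT early, 13 in WT intermediate, 9 in WT late, 222 in KO early, 37 in KO intermediate and 1 in KO late, and WT naive held 8 in a single barcode. KO early was high, and 3 of its barcodes held 67, 43 and 42 UMIs with no Ccr7 UMI in any of them.

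The 21 macrophage-like barcodes with at least 5 Ccl17 UMIs were singled out after their values were seen, and are described only. They held 342 Ccl17 UMIs, with Ccr7 in 3 and Ccl22 in 6. Beside the 550 macrophage-like barcodes without Ccl17, their level was higher for H2-DMb2 (414 against 35.7 CPM), Cd209a (401 against 7.78 CPM), Clec10a (373 against 36.1 CPM) and Mgl2 (1077 against 153 CPM), genes of antigen loading and of lectins found on conventional dendritic cells of the second type. It was lower for the monocyte and macrophage genes Arg1 (69.1 against 2635 CPM) and Lyz2 (2141 against 17172 CPM). All 21 held H2-Ab1, a chain of MHC class II. H2-DMb2 was found in 15 of them, Clec10a in 12, Mgl2 in 10 and Cd209a in 4, and 28 of the 78 Mgl2 UMIs came from 1 barcode of KO early. Among other dendritic cell genes, Itgax (166 against 84.2 CPM) and Zbtb46 (27.6 against 2.29 CPM, 2 UMIs) were higher. Irf4 and Flt3 had 0 UMIs, against 5 and 15 in the 550 barcodes.

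**Figure D2:**
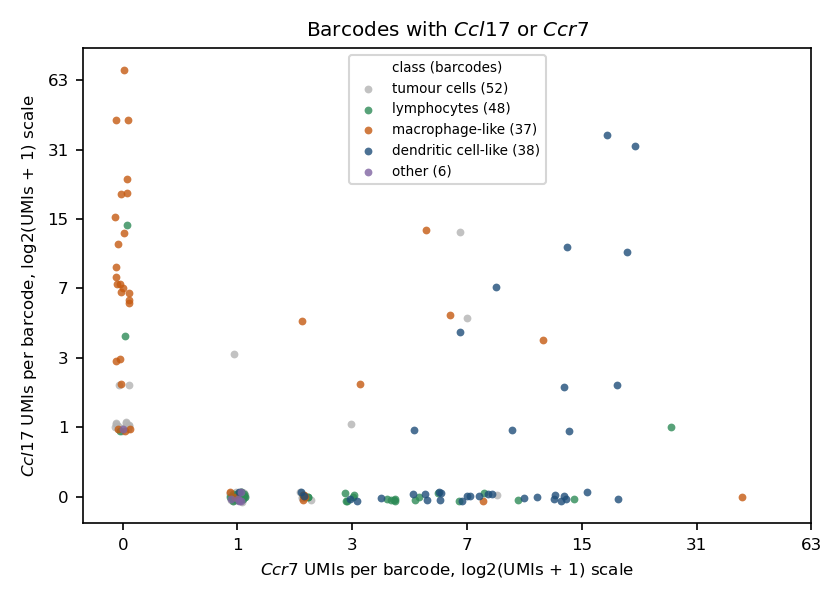
Each point is a barcode with at least 1 UMI of Ccl17 or Ccr7, with Ccr7 UMIs on the horizontal and Ccl17 UMIs on the vertical axis (both log2(UMIs + 1), slightly jittered) and colour for the class. Macrophage-like points line the left edge, where 24 barcodes held Ccl17 without Ccr7, while 11 dendritic cell-like points held both and none held Ccl17 alone.

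The upstream sequences of both chemokine genes are shown because the pair is adjacent yet differs between classes. They are the 250 bases before the RefSeq start site of each gene on GRCm38.p6 (chr8:94745434-94745683 and chr8:94810203-94810452, plus strand). The capitals mark GGAAGT, a motif that holds the shorter core GGAA of ETS factors, at -115 from the start in Ccl22. GGAA alone was not marked, and it also occurs in the Ccl17 sequence. By GENCODE release M21 Ccl22 starts earlier, inside this window.
Ccl22: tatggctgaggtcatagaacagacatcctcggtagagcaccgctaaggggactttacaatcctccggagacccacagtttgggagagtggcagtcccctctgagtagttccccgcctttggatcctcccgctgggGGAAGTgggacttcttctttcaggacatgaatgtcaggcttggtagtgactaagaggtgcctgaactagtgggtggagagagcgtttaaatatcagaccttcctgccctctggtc
Ccl17: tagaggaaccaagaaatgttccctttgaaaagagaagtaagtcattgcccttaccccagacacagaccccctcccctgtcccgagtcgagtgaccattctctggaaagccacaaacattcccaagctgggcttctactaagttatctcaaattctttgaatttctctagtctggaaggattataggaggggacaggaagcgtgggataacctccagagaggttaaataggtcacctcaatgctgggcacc
Promoters of 300 bases, 250 before and 50 after the start, were matched for 9 of the genes, which had 10 promoters among them, and both strands were searched. GGAAGT was in 3 of the 10 (Ccl22, Flt3 and Cacnb3) and in 23.8% of all 32851 promoters. An interferon response motif (GAAA, any 2 bases, GAAA) was in 1 (Serpinb9) and in 3.44% of all. TGANTCA, the AP-1 motif, was in 1 (Zbtb46) and in 7.81%. The NF-kB consensus was in 0 of 10 and in 8.46% of all. No promoter was at hand for Ccr7.

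CCR4, the receptor for both ligands, was sparse. Ccr4 had 8 UMIs in all 7861 barcodes, and all 8 were in 6 lymphocyte barcodes.

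Il12b, the p40 chain shared by interleukin-12 and interleukin-23, lies on chromosome 11 (44400063 to 44414033, plus strand). The dendritic cell-like class held 2427 CPM (2110 to 2779) in 14 of 40 barcodes. By library its UMIs numbered 23 in WT early, 0 in WT intermediate, 70 in WT late, 64 in KO early, 33 in KO intermediate and 20 in KO late. The 70 of WT late all came from 1 barcode, and 63 of the 64 of KO early from another. Without these 2 barcodes the class level was 959 CPM. Macrophage-like (38.3 CPM, 30.7 to 47.2) and microglia-like barcodes (35.8 CPM, 27.2 to 46.3) followed and did not differ beyond counting error.

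Across all classes 6 barcodes held 343 of 556 Il12b UMIs (61.7%). Only 2 of the 6 were dendritic cell-like. The largest, with 93 Il12b UMIs, was a tumour-class barcode of WT intermediate with 32630 UMIs, 275 of them of tumour markers, and it held 8 of the 10 genes. A second tumour-class barcode, of KO late, held 64 Il12b UMIs with 8 of the genes in 16397 UMIs, and Leiden clustering placed it among the macrophage-like barcodes. Such barcodes can hold more than 1 cell, which was not tested. The partner chains were not found beside p40 in the dendritic cell-like class. Against 210 Il12b UMIs it held 0 of Il12a and 0 of Il23a, each of which allows up to 34.7 CPM. Il23a was found in macrophage-like barcodes at 20.9 CPM (48 UMIs in 16 barcodes) and Il12a at 3.92 CPM.

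**Figure D3:**
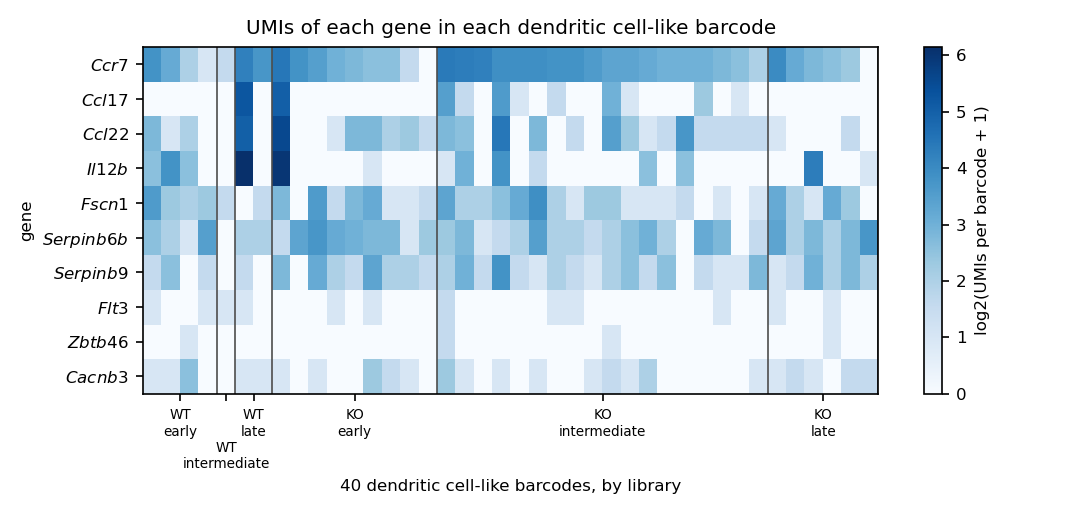
Columns are the 40 dendritic cell-like barcodes in order of library and rows the 10 genes, with colour for log2(UMIs + 1) and vertical lines between libraries. Ccr7, Fscn1, Serpinb6b and Serpinb9 run through most columns, whereas the darkest cells of Ccl17, Ccl22 and Il12b fall together in 1 barcode of WT late and 1 of KO early.

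The same 2 barcodes carried the highest counts of 3 secreted products. The WT late barcode held 70 Il12b, 37 Ccl17 and 31 Ccl22 UMIs in 2581 UMIs, and the KO early barcode held 63, 32 and 46 in 3667 UMIs. Within the 40 barcodes Il12b was found with Cacnb3 in 13 of its 14 barcodes and with Ccl22 in 12.

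Fscn1 encodes fascin, which bundles actin in the protrusions of mature dendritic cells, and lies on chromosome 5 (142960343 to 142973185, plus strand). It was found in 35 of 40 dendritic cell-like barcodes at 1711 CPM (1446 to 2009), between 450 CPM in WT late and 2641 CPM in WT early. Most Fscn1 UMIs lay elsewhere, and the class held 148 of 5651. Tumour barcodes held 82.4% of its UMIs at 153 CPM (149 to 158). Neural stem cell-like (230 CPM), oligodendrocyte (213 CPM) and microglia-like barcodes (201 CPM) held it at levels whose intervals overlapped their neighbours in this order, and macrophage-like barcodes held 16.99 CPM (12.1 to 23.2).

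Serpinb6b and Serpinb9 encode intracellular inhibitors of serine proteases, the second of granzyme B, and lie 24.182 kb apart on chromosome 13. Both belong to families of close paralogs, and reads shared with such a copy could have been counted for either. Serpinb6b was found in 37 of 40 dendritic cell-like barcodes at 2161 CPM (1863 to 2494). Serpinb9 was found in 35 of 40 at 1479 CPM (1234 to 1759). The 2 were found together in 34 barcodes. Lymphocytes came next for both, Serpinb6b at 229 CPM (198 to 264) in 34.5% of barcodes and Serpinb9 at 315 CPM (278 to 354) in 38.0%. Endothelial barcodes held 90.03 and 114 CPM in the same order.

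Flt3, the growth factor receptor of dendritic cell precursors, and Zbtb46, a transcription factor of conventional dendritic cells, were low. Flt3 had 45 UMIs in all, and the dendritic cell-like class held 13 of them in 12 barcodes, 150 CPM (80.0 to 257), with macrophage-like barcodes at 7.41 CPM (4.31 to 11.9). Zbtb46 had 5 UMIs in 4 dendritic cell-like barcodes, 57.8 CPM (18.8 to 135), an interval that overlapped that of endothelial barcodes (30.0 CPM, 22.0 to 39.9). Endothelial barcodes held 47 of its 130 UMIs and tumour barcodes 51. At this depth Zbtb46 did not set the class apart from endothelium. The ligand Flt3l had 30 UMIs in all, of which 20 were in tumour barcodes and 0 in dendritic cell-like ones.

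Cacnb3 encodes a beta subunit of voltage-gated calcium channels and lies on chromosome 15 (98630840 to 98644529, plus strand). It was found in 24 of 40 dendritic cell-like barcodes at 474 CPM (340 to 643), and next in neuron-like barcodes at 82.2 CPM. Macrophage-like barcodes held 1 Cacnb3 UMI and microglia-like barcodes 1. By library the dendritic cell-like class held between 0 in WT intermediate and 840 CPM in WT early.

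In the naive brain most of the set was missing. Among 1868 naive barcodes Ccr7, Ccl22 and Il12b had 0 UMIs, which allows up to 0.695 CPM each, Flt3 had 2 UMIs, and the 8 Ccl17 UMIs were those of the single macrophage-like barcode. Fscn1 (405 UMIs), Serpinb9 (154), Serpinb6b (118), Zbtb46 (39) and Cacnb3 (11) were present, in classes other than the dendritic cell-like one. In whole tumour-bearing libraries Ccr7 was found at 21.2, 1.20 and 6.90 CPM in WT early, intermediate and late, and at 22.0, 43.4 and 23.7 CPM in KO early, intermediate and late. Ccl22 followed at 3.56, 1.32 and 4.85 CPM in the WT and 18.1, 13.8 and 3.47 CPM in the KO libraries. At the early stage Ccr7 did not differ beyond counting error (113 UMIs in WT and 107 in KO), and at the intermediate and late stages it was higher in KO. Ccl22 was higher in KO at the early and intermediate stages. A library with more tumour barcodes (926 of 1000 in WT intermediate) holds fewer others, and more cells of a type cannot be told apart from more RNA per cell in such totals.

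The share of myeloid barcodes with 3 or more of the genes was compared between genotypes, since tumour barcodes are not counted in it. They still bear on it, because each library kept its 1000 barcodes with most UMIs. WT intermediate kept 926 tumour and 23 myeloid barcodes. The share was 8 of 280 (2.86%, exact 95% binomial interval 1.24 to 5.55) in WT early, 1 of 23 (4.35%, 0.110 to 21.9) in WT intermediate and 2 of 71 (2.82%, 0.343 to 9.81) in WT late. In the KO libraries it was 12 of 160 (7.50%, 3.94 to 12.7), 22 of 195 (11.3%, 7.21 to 16.6) and 11 of 180 (6.11%, 3.09 to 10.7). The ranges of the genotypes did not overlap, and KO was higher in 3 of 3 stages. With a minimum of 2 genes in place of 3 they overlapped, since WT intermediate held 3 of 23 (13.04%) and KO late 17 of 180 (9.44%). The KO mean was 8.30% ± 2.68 (SD, n = 3) and the WT mean 3.34% ± 0.87 (SD, n = 3), a difference of 4.96 percentage points with a two-sided exact permutation p of 0.1, which is the smallest that 3 against 3 libraries can give. With sets of barcodes merged the difference was 5.17 points (exact permutation p = 0.1). Dendritic cell-like barcodes as a share of myeloid barcodes gave a difference of 3.199 points (exact permutation p = 0.2). As a share of macrophage-like and dendritic cell-like barcodes they gave 4.44 points (exact permutation p = 0.3) and were higher in KO in 2 of 3 stages, with 4.08% in KO late and 4.65% in WT late. Each mouse is of 1 genotype and 1 stage, and at the early and intermediate stages also of another sex than its counterpart. The genes were chosen with earlier results of these libraries known, so the comparison is not independent of those results.

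**Figure D4:**
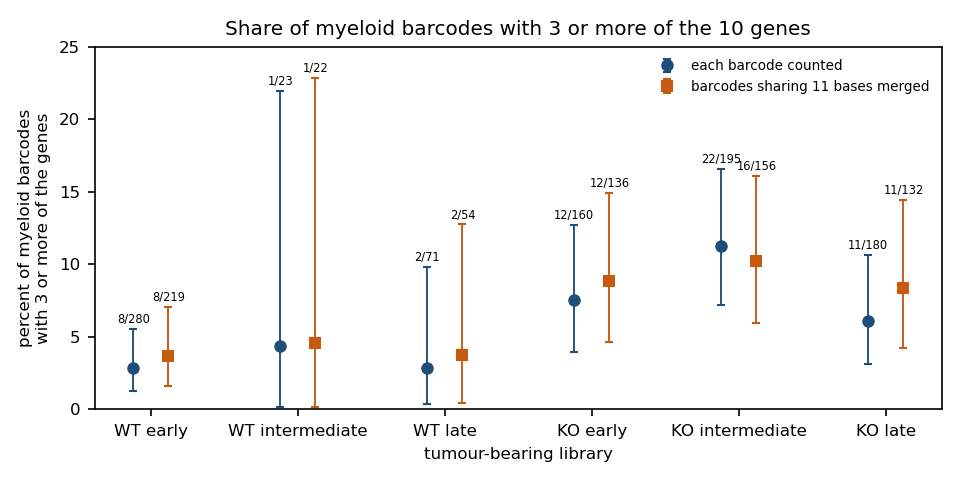
Points give the percent of myeloid barcodes with 3 or more of the 10 genes in each tumour-bearing library, as deposited (circles) and with barcodes that share 11 bases merged (squares), with exact 95% binomial intervals and the counts above. The 3 KO libraries sit between 6.11% and 11.3% and the 3 WT libraries between 2.82% and 4.35%, with wide intervals where few myeloid barcodes were found.

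The myeloid barcodes with 3 or more of the genes were next compared with all other myeloid barcodes of the same library, to see which other transcripts went with the set. Sums per library were tested with edgeR (quasi-likelihood test, library as block, Benjamini-Hochberg adjustment) in the 4 libraries with at least 3 such barcodes, WT early and the 3 KO libraries, over 6354 genes outside the set. The set itself chose the barcodes and is given as counts only. Ccr7 held 394 UMIs on the chosen side against 24 on the other, Cacnb3 40 against 0, Serpinb6b 214 against 20 and Ccl22 173 against 13, while Ccl17 held 192 against 208. Of the other genes 797 (12.5%) passed an adjusted p of 0.05, 285 higher (4.49%) and 512 lower (8.06%), and the median log2 difference was -0.21. With DESeq2 422 passed, of which 53.6% were higher against 35.8% by edgeR.

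Among genes that moved the same way in all 4 libraries, the largest rises were the following. Ramp3, which escorts calcitonin family receptors, rose by 6.10 ± 0.47 (log2, SE), from between 0 and 22.0 CPM to between 359 and 563 CPM, without overlap (edgeR adjusted p = 1.3e-35). Tbc1d4, a regulator of vesicle traffic, rose by 5.37 ± 0.34 and Cd200, an inhibitory surface ligand, by 5.73 ± 0.46. Il4i1, an amino acid oxidase of antigen-presenting cells, rose by 5.95 ± 0.62, Bcl2l14 by 5.97 ± 0.61 and Stat4, which transmits interleukin-12 signals, by 5.40 ± 0.62. Sema7a (5.71 ± 0.82) and Btla (5.46 ± 0.84), a receptor of the CD28 family, also rose. Nudt17 was counted 31 times in the chosen barcodes and 1 time in the others, and Mreg 23 times against 1. All of these genes were at 22.0 CPM or less in the other barcodes. They passed the filter on low counts only through the chosen barcodes, where they are high, and the count of higher genes includes them. The largest falls were of genes at 0 UMIs in the chosen barcodes, for which only a bound against 3 counts over the group is given. Inhba was at least 10.4-fold lower, Saa3 at least 7.60-fold, F13a1 at least 6.76-fold and Sirpb1c at least 6.57-fold. Ero1l, Thap6, P2ry13, Zcchc2 and Cfap36 had bounds between 3.51-fold and 5.72-fold.

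Grouped by function, the maturation and regulatory genes went with the set most often, with 12 of 15 tested higher, 0 lower and a median log2 difference of 2.97. Of the NF-kB family and its targets 9 of 16 were higher and 0 lower (median 1.06), among them Traf1 (4.46 ± 0.33), Relb (3.04 ± 0.37), Birc2 (2.69 ± 0.44) and Map3k14 (2.53 ± 0.76), the kinase of the noncanonical arm. Of costimulatory and checkpoint genes 5 of 11 were higher and 0 lower (median 1.02), including Slamf1 (3.97 ± 1.11), the CD28 ligand Cd80 (2.22 ± 0.47) and Cd40 (1.68 ± 0.44). Of dendritic cell lineage genes 5 of 10 were higher and 0 lower (median 0.97), with Dpp4 (3.94 ± 0.56), Kit (2.65 ± 0.84), Batf3 (2.06 ± 0.46) and Id2 (1.52 ± 0.24). Cd200, Traf1, Relb, Il4i1, Socs2, Ccl5, Cd80, Cd86, Cd40, Batf3, Clec9a, Xcr1 and H2-DMb2 were also among the markers that named the class. Among the genes in these lists, Nudt17, Bcl2l14, Il4i1, Stat4, Cd200, Slamf1, Map3k14, Dpp4 and Kit passed the filter on low counts only through the chosen barcodes. So did Birc2, Net1 and Il15ra, and this naming may not be complete. The numbers tested and higher in these lists include such genes.

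Genes of the dendritic cell subsets did not move together. Of type 1 genes 2 of 7 were higher, Xcr1 (2.58 ± 0.81) and Clec9a (2.46 ± 0.68), and 0 lower, with a median of -0.76 (-0.66 with the gene at 0 UMIs set to its bound). Both Xcr1 and Clec9a passed the filter on low counts only with the chosen barcodes, where they are high. The 11 Xcr1 UMIs came from 2 barcodes outside the dendritic cell-like class, and the lowest library held 0, while those of Clec9a came from 6 barcodes of the 56. Of type 2 genes 0 of 5 were higher and 2 lower (median 0.07), Ccl9 (-1.62 ± 0.37) and Sirpa (-1.47 ± 0.37), and of plasmacytoid genes 0 of 3 were higher and 2 lower (median -1.33), Siglech, which microglia also express, and Bst2.

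MHC class II genes were not higher as a group. Of 9 tested 1 was higher, H2-DMb2 (1.56 ± 0.47), and 3 were lower, H2-DMa (-1.01 ± 0.26), Cd74 (-0.76 ± 0.18) and H2-Ab1 (-0.65 ± 0.18), and the median was -0.42. Cd74 was still abundant, between 6555 and 8349 CPM in the chosen barcodes and between 9351 and 13373 CPM in the others. Of 6 ligands and receptors paired with the set 1 was higher, Ccl5 (2.26 ± 0.22), a chemokine for T cells, and 3 were lower, Ccl4 (-2.16 ± 0.27), Ccl3 (-1.73 ± 0.32) and Cxcl10 (-0.81 ± 0.27).

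All 16 monocyte and macrophage genes were lower (median -2.36), among them Ly6c2 (-4.71 ± 0.42), Arg1 (-3.57 ± 0.29) and Tgfbi (-2.84 ± 0.31). Cell cycle genes gave 2 lower of 5, Mki67 (-1.23 ± 0.41) and Top2a (-1.12 ± 0.36), with a median of -1.23. Of 9 genes of the dissociation response 8 were lower (median -1.62), with Hspa1a at -3.19 ± 0.66, Egr1 at -2.42 ± 0.36, Jun at -1.63 ± 0.27 and Fos at -1.62 ± 0.24. The chosen barcodes held the 12 macrophage markers at 1857 to 9564 CPM in these 4 libraries, against 17280 to 21048 CPM in the other myeloid barcodes. The 14 lymphocyte markers were held at 36.5 to 79.7 CPM in 3 libraries and at 529 CPM in KO late (30.7 to 139 CPM in the others), and the 7 B cell markers at 0 to 25.2 CPM. The part of these cells in the differences was not tested.

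**Figure D5:**
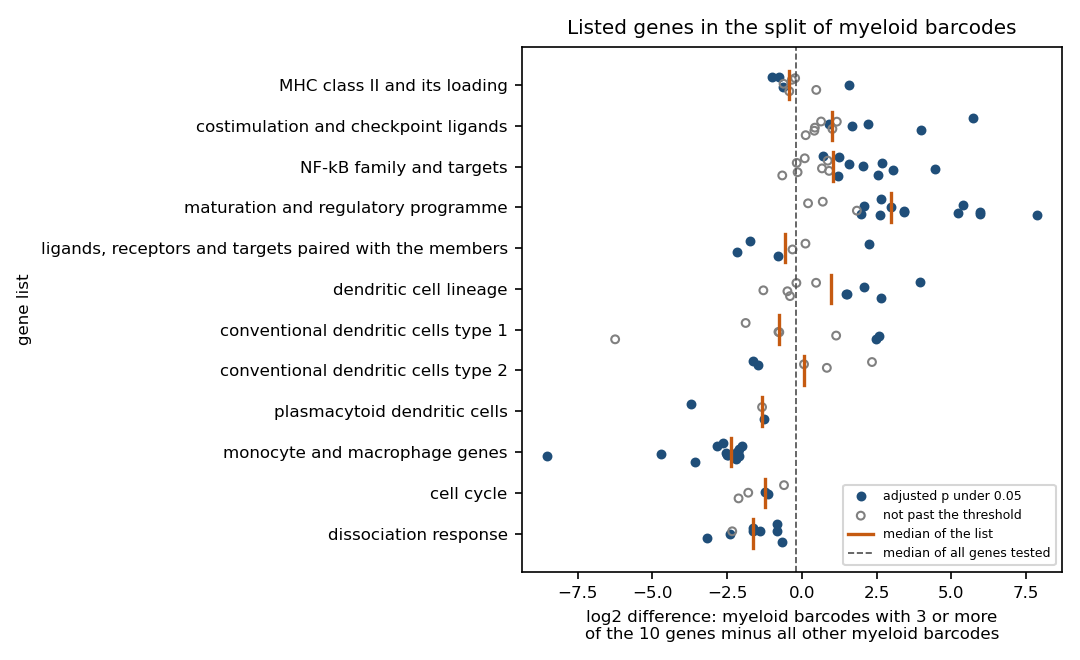
Each point is a gene of a list, placed by its log2 difference between myeloid barcodes with 3 or more of the 10 genes and all other myeloid barcodes of 4 libraries (filled: edgeR adjusted p under 0.05), with the list median as a bar and the median of all tested genes, -0.21, as a dashed line. The maturation list has its median at 2.97 and the monocyte and macrophage list, with every gene lower, at -2.36.

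By a second measure, the share of a gene's UMIs that lay in the 56 chosen barcodes, given as a description with no test, the highest transcripts outside the set were Gm13546 (39 of 50 UMIs, 78.0%), Il4i1 (47.9%), Mreg (43.5%), Ramp3 (42.4%), Mmp25 (38.7%), Btla (34.8%), Bcl2l14 (34.4%), Nudt17 (30.0%), Kynu (28.1%), Kmo (27.0%), Gm16228 (24.6%, all in 1 barcode) and Traf1 (23.5%). The median of 17175 genes with at least 50 UMIs was 0.185%, and the 56 barcodes held 0.433% of all UMIs. Of these 12, Gm13546, Mreg, Mmp25, Btla, Kynu and Kmo reached the minimum of 50 UMIs only with their UMIs inside the chosen barcodes. In the set itself, whose detection chose the barcodes, the share was 80.3% for Ccl22, 63.9% for Ccr7, 48.9% for Flt3, 47.8% for Il12b, 43.4% for Ccl17, 27.4% for Serpinb6b, 24.4% for Cacnb3, 15.9% for Serpinb9, 3.85% for Zbtb46 and 3.04% for Fscn1. Kmo and Kynu encode enzymes of the kynurenine pathway of tryptophan breakdown.

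Whether the genes differed between KO and WT hosts within a class was tested on summed UMIs with edgeR and the stage as block. In macrophage-like barcodes 4 of 6765 genes (0.0591%) passed, with 0.0443% higher and 0.0148% lower in KO, and none of the 4 tested members did. Their unadjusted p was under 0.05 for Ccr7 and Serpinb9, as it was for 292 of all 6765 genes by edgeR. DESeq2 called 12 genes and gave these members no adjusted p. Ccr7 was found at 10.5, 0 and 21.2 CPM in WT early, intermediate and late and at 25.7, 31.2 and 106 CPM in the KO libraries, a log2 difference of 1.93 ± 0.57 (edgeR adjusted p = 0.559). The groups did not overlap, and most of the KO late value is the barcode with 43 UMIs. Ccr7 passed the filter on low counts only through the KO libraries, where it is high, so neither its unadjusted p nor the lack of overlap is independent of that. Serpinb9 lay between 21.2 and 23.9 CPM in WT and between 38.3 and 96.5 CPM in KO, again without overlap, with a difference of 1.30 ± 0.48 (adjusted p = 0.899). Ccl17 differed by 0.25 ± 0.76 and Il12b by 0.90 ± 1.08, with overlapping groups, and both changed sign when single libraries were left out. WT intermediate and WT late held 0 Il12b UMIs there, as did KO early, so that fits for Il12b without an early library compare with a count of 0.

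In tumour barcodes 2 of 14548 genes (0.0137%) passed between KO and WT hosts, with 0.00687% higher and 0.00687% lower, and none of 6 tested members did by edgeR. Serpinb6b was at 2.58, 0.874 and 0.162 CPM in WT early, intermediate and late and at 12.1, 9.88 and 12.6 CPM in the KO libraries, a log2 difference of 3.58 ± 0.61 (edgeR adjusted p = 0.338). With DESeq2, which called 72 genes, its adjusted p was 0.000499, so the call depends on the tool, and without WT early the edgeR adjusted p was 0.0111. In each of these fits Serpinb6b passed the filter on low counts only with the KO libraries, where it is high, so they are not independent of that. In KO intermediate 39 of its 48 UMIs came from 1 barcode, without which the level was 1.89 CPM and the groups overlapped. Serpinb9 was at 5.49, 5.00 and 2.76 CPM in WT and at 8.46, 12.6 and 25.0 CPM in KO, a difference of 1.77 ± 0.48 (edgeR adjusted p = 0.503). Lymphocyte markers in the tumour class moved beside both serpins, with 31.004, 1.75 and 9.58 CPM in WT and 54.1, 14.8 and 206 CPM in KO, and their part was not tested. Fscn1, the abundant member there, was at 132, 153 and 223 CPM in WT and 122, 134 and 125 CPM in KO, a difference of -0.34 ± 0.20 with overlapping groups (adjusted p = 0.928). Ccr7, Il12b and Cacnb3 were tested and did not pass, although Il12b did without KO intermediate (5.21, edgeR adjusted p = 0.0456). That fit leaves WT intermediate alone in its stage, so its barcode with 93 Il12b UMIs no longer enters the contrast. In KO late, single barcodes held 64 and 19 Il12b UMIs, so the value rests largely on them.

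Fscn1 could be compared between tumour-bearing and naive brains in resident classes. In microglia-like barcodes, where 662 of 3746 genes (17.7%) passed (10.7% higher and 6.94% lower) and Fscn1 was the only member with enough counts, it was at 75.6, 115 and 155 CPM in WT early, intermediate and late and at 157, 120 and 93.3 CPM in the KO libraries. The naive libraries held 288 CPM (WT) and 313 CPM (KO), above all 6 tumour-bearing ones. It fell by 1.31 on the log2 scale (SE 0.30, edgeR adjusted p = 0.00547), and the adjusted p was 0.158 without WT naive and 0.135 without KO naive, with 1 naive library left. Tumour markers in this class moved beside it, from 56.9 and 61.5 CPM in the naive to between 108 and 901 CPM in the tumour-bearing libraries, and their part was not tested. Leiden clustering divided the class into a cluster with 215 and 226 barcodes of WT and KO naive and at most 7 of any tumour-bearing library, and a cluster with 1 and 3 naive barcodes, so that the groups compared come mostly from different clusters. In the same comparison all 7 MHC class II genes tested were higher, as were 7 of 11 NF-kB genes with 0 lower.

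In endothelial barcodes Fscn1 went the other way. It was at 44.1, 92.5 and 111 CPM in WT early, intermediate and late, at 59.1, 51.8 and 62.0 CPM in the KO libraries, and at 7.26 and 4.66 CPM in WT and KO naive. The groups did not overlap, and the log2 difference was 3.396 ± 0.741 (edgeR adjusted p = 0.0270), in a comparison in which 202 of 4055 genes (4.98%) passed, 4.09% higher and 0.888% lower. Fscn1 passed the filter on low counts there only through WT intermediate and WT late, where it is high, so its call is not independent of that. With Leiden clustering the adjusted p was 0.0662, and it was 0.345 without WT naive, 0.144 without KO naive, 0.0572 without KO early and 0.0599 without KO late. These values rest on between 3 and 15 UMIs per tumour-bearing library. Tumour markers moved with them, at 353 to 9435 CPM in the endothelial barcodes of tumour-bearing libraries and 14.5 to 23.3 CPM in naive ones, and their part was not tested. Serpinb6b, at 22.2 to 326 CPM against 79.1 and 84.8 CPM, and Serpinb9 overlapped between the groups and did not pass.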

How the data were processed

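Per the labels and the study's methods, the authors converted sequencer output with bcl2fastq 2.0, aligned it with STAR (version not given in the sources used here) to GRCm38 (mm10) and deposited unnormalized UMI counts for 3000 barcodes per library. The members and lists were chosen with earlier results of these data known. From these counts the 1000 barcodes with most UMIs and at least 500 genes were kept, and 18444 genes found in at least 30 barcodes, without the 10 members, were clustered (50 principal components, tSNE with perplexity 50, Rtsne 0.17, HDBSCAN with at least 19 barcodes, scikit-learn 1.9.0). Clusters were named from markers, and doublets were scored (Scrublet, scanpy 1.11.5) but kept. UMIs were summed per library and class (at least 5 barcodes) and tested with edgeR 4.0.16 (TMM, filterByExpr, R 4.3.3) at an adjusted p of 0.05. DESeq2 1.42.0, Leiden clustering and other settings were alternatives. On simulated data for the split of myeloid barcodes, over 6363 genes, 60 of 100 genes changed 4-fold and 8 of 100 changed 2-fold were called. Named were the members, the largest 2 to 4 changes per list, the 10 largest each way in the split, and the 12 genes most confined to the chosen barcodes. Of the genes this rule names, 1 is not reported here. Each group is 1 library, so the tests used sums per library. In the split of myeloid barcodes edgeR pooled the spread between libraries over genes. Its p-values there do not measure each gene's own spread over the 4 libraries.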

Additional observations from a re-analysis of the deposited data

Results flagged for a closer look

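In 21 groups of 6 tumour-bearing libraries the highest or lowest library was tested by Dixon's ratio against its 95% critical value, which chance exceeds in about 1 group in 20, and 4 groups exceeded it. Ccl17 in all kept barcodes stood at 55.9 CPM in KO early, with the next library at 14.97 CPM, and 222 of its 272 UMIs there were in macrophage-like barcodes. Il12b in all kept barcodes stood at 30.8 CPM in KO late, where 2 tumour-class barcodes held 64 and 19 of its UMIs. In the dendritic cell-like class Ccl17 (8320 CPM) and Il12b (15741 CPM) stood apart in WT late, where 1 of the 2 barcodes of the class held all 37 and all 70 UMIs.

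Outside the kept barcodes, with a median of 535 UMIs, 31 of 12007 barcodes of the tumour-bearing libraries held 3 or more of the genes, against 0 of 4132 in the naive libraries. Of the 31, WT early, intermediate and late held 3, 7 and 0, and KO early, intermediate and late held 13, 3 and 5. They are not counted in the shares above.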

How the results depend on the processing

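The number of barcodes with 3 or more of the genes (101) became 492 with a minimum of 2 genes, 56 with a minimum of 4 and 47.5 on average with barcodes thinned to 1000 UMIs, and that of myeloid barcodes (56) became 96 with a minimum of 2, with a range of 34 to 56 without single libraries. The split of myeloid barcodes (797 genes called) gave 422 with DESeq2, 488 without the library as block and 460 to 566 without single libraries (lowest without KO intermediate, and 471 without WT early and 506 without KO late). The macrophage-like comparison (4) gave 12 with DESeq2, 8 with at least 1000 genes per barcode, 53 without a filter on low counts, 0 without the stage as block (231 genes at an unadjusted p under 0.05, and 12 by DESeq2 with the block) and 12 to 98 without single libraries. The tumour comparison (2) gave 72 with DESeq2, 491 without the filter, 0 with Leiden clustering (850 unadjusted), 0 with at least 1000 genes (925 unadjusted), 0 without the stage as block (794 unadjusted) and 9 to 204 without single libraries. The microglia-like comparison (662) gave 97 (without KO naive) to 749 without single libraries, and the endothelial one (202) gave 311 with DESeq2, 621 without the filter and 2 (without either naive library) to 365 (without WT early) without single libraries. Without the filter the median log2 difference over all genes of the split moved from -0.21 to -1.06. Signs turned for Ccl17 in macrophage-like barcodes (-1.56 without WT early and -1.59 without KO early, range -1.59 to 1.09 without single libraries), Il12b there (-0.69 without WT late, range -0.71 to 7.88, the highest against WT libraries at 0 UMIs and no measure of size), Il12b in tumour barcodes (-0.29 with Leiden clustering, range -1.37 to 5.21, lowest without WT late and -1.36 without KO late), Cacnb3 there (range -0.90 to 0.027, above 0 without WT intermediate), Serpinb9 in endothelial barcodes (0.11 without the covariate, range -1.31 to 0.89, with 0.059 without WT late) and Serpinb6b there (range -0.60 to 1.24, below 0 without KO naive). The cause was not tested. All 10 genes kept their highest level in the dendritic cell-like class under every setting tried for it. For Zbtb46 this rests on 5 UMIs. Without the 2 barcodes that held most of them the class was at 24.5 CPM, and endothelial barcodes were at 30.0 CPM. Of 54 genes named in the split 37 kept direction and call in all settings and 0 reversed. Merging barcodes and the level settings were chosen after seeing the data. Library and stage served as blocks. No paired analysis was possible because replicate numbers, 1 in each group, pair no further samples.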
